A study of Arabidopsis thaliana with 8 samples.

Results

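The comparison described here is that of til1-1 with wild-type Arabidopsis thaliana seedlings collected directly after heat shock at 37 °C. It rests on 4 of the 8 arrays of the study, chosen by their labels: 2 arrays of til1-1 at 37 °C and 2 arrays of Col-0, the wild-type accession, at 37 °C. til1-1 is a mutant of TIL (AT5G58070), the gene for temperature-induced lipocalin. All seedlings were 7 days old, and each array received RNA from a pool of about 100 plants of 1 biological replicate. The other 4 arrays held til1-1 and Col-0 at 22 °C, 2 of each, and serve as the unheated background. The sources used here give neither the length of the heat shock nor the place of the mutation relative to the probes for TIL.

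Lipocalins are small barrel-shaped proteins that bind lipids and other hydrophobic molecules. TIL sits at membranes, and in Arabidopsis it is known for protecting against heat and against oxidised lipids. Heat shock itself sets off a transcriptional programme led by heat shock factors, whose targets include the small heat shock proteins, which hold unfolding proteins, and the larger chaperones that refold them.

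Each array gave 1 intensity, in arbitrary units, for each of 22810 probe sets. Array medians were 160.35 and 156.55 in til1-1 at 37 °C, against 154.8 and 158.95 in Col-0 at 37 °C. The 25S rRNA control read 2398.8 and 3625.1 in til1-1, against 1828.4 and 3966.8 in Col-0, and the 3'/5' ratio of the actin controls was 2.126 and 2.037 in til1-1, against 2.159 and 1.860 in Col-0. Both measures overlapped between the genotypes. The mean of 9 spiked control probe sets did not: it was 10.58 and 10.46 (log2) in til1-1, against 10.68 and 10.81 in Col-0, and scaling to these controls moves every value up in til1-1 relative to Col-0. Over all probe sets, which are no independent replicates, log2 intensities correlated at 0.9734 between the til1-1 replicates and at 0.9815 between the Col-0 replicates, with 0.9755 to 0.9778 between arrays of different genotype. The 2 til1-1 arrays were therefore no more like each other than like the wild-type arrays. With 2 arrays a group the number of arrays limits the precision: a two-sided exact permutation test cannot go below p = 0.333, and tests here are from limma across all probe sets.

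The gene that the mutant targets comes first. TIL (probe set 247851_at) read 5803.7 and 5341.8 in til1-1 at 37 °C, against 21245.7 and 20289.7 in Col-0 at 37 °C. TIL was thus far lower on both mutant arrays, at 26.83% of the wild-type mean, and the groups were well apart. On the scale used for every test, log2(intensity + 16), TIL fell by 1.90 ± 0.09 (standard error) in til1-1, with a 95% confidence interval of -2.09 to -1.70 and an adjusted p of 1.51e-06 (limma, Benjamini-Hochberg). The TIL probe set still gave a signal in the mutant after heat shock. With the place of the mutation relative to the probes unknown, the source of that signal was not tested. At 22 °C the probe set read 3167.6 and 3047.8 in the samples labelled til1-1, against 3795.1 and 3132.3 in Col-0. The difference at 22 °C was -0.15 ± 0.09 on the log2 scale and did not pass (adjusted p = 1), so TIL bears out the genotype labels at 37 °C and does not separate them at 22 °C. The genotype difference at 37 °C was larger than that at 22 °C by -1.75 ± 0.13 (log2, standard error), at an adjusted p of 0.000204 for the difference itself. In a fit with no intensity trend the same difference of -1.75 had an adjusted p of 0.106. In bulk samples such as these, fewer cells of a type and less RNA per cell cannot be told apart.

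**Figure D1:**
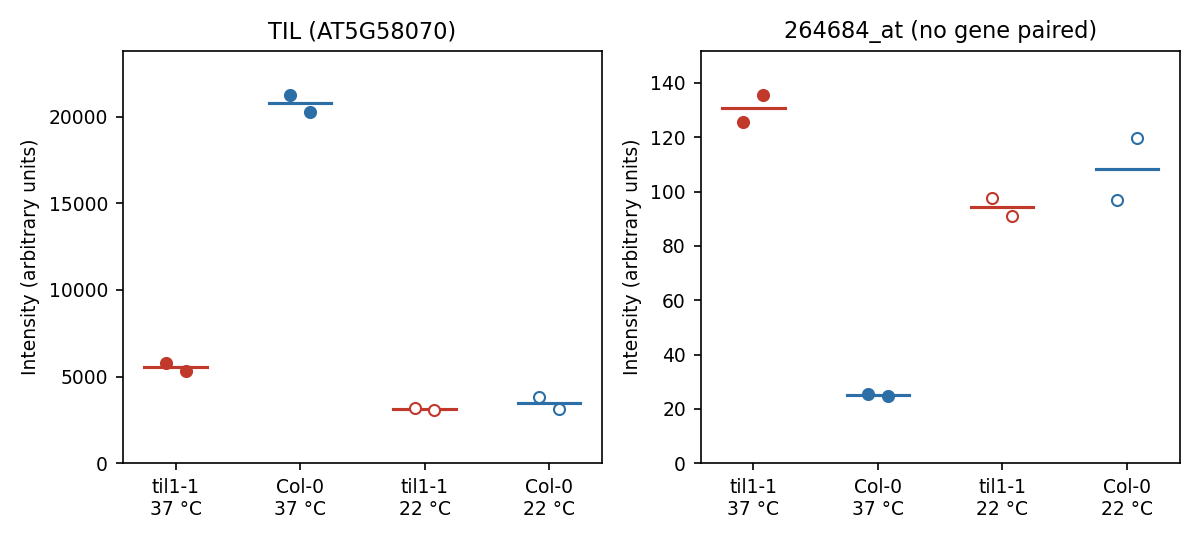
Intensity (arbitrary units, linear axes from 0) of the TIL probe set and of probe set 264684_at on each of the 8 arrays, with til1-1 in red, Col-0 in blue, filled points at 37 °C, open points at 22 °C and a line at each group's mean. TIL lies at 5803.7 and 5341.8 in til1-1 at 37 °C, far under the 21245.7 and 20289.7 of Col-0, while 264684_at lies at 125.8 and 135.6 in til1-1 and at 25.5 and 24.6 in Col-0.

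Outside TIL, 1 probe set passed. This was 264684_at, unnamed here because the annotation lists no gene for it, which read 125.8 and 135.6 in til1-1 at 37 °C, against 25.5 and 24.6 in Col-0 at 37 °C. It rose by 1.84 ± 0.23 (log2, standard error) at an adjusted p of 0.0324. The Col-0 values are dim and, with no detection call, are not shown to be above background, so the size of the difference is uncertain. At 22 °C the same probe set read 97.7 and 91.0 in the samples labelled til1-1, against 96.8 and 119.7 in Col-0, and the difference did not pass (log2 -0.17, adjusted p = 1). The low values were therefore those of the heated Col-0 arrays, whereas heated til1-1 read above its own values at 22 °C. The test of the difference between temperatures did not pass for it either (log2 2.00 ± 0.32, adjusted p = 0.273). Its pass rests on the 22 °C arrays, which share in the estimate of the spread: with the 4 arrays at 37 °C alone the adjusted p was 0.175. Leaving out replicate 2 of Col-0 at 37 °C gave 0.112, leaving out replicate 2 of til1-1 at 37 °C gave 0.0572, and leaving out any 1 array at 22 °C gave 0.116 to 0.133.

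These 2 probe sets made up all the calls among 17059 tested probe sets, or 0.0117% of them, with 1 higher (0.00586%) and 1 lower (0.00586%) in til1-1. The counts depend on the scaling, with 296 higher and 37 lower after scaling to spiked controls. The third smallest adjusted p was 0.0775, for probe set 260101_at, likewise with no gene listed; it read 1023.5 and 1191.5 in til1-1, against 1663.7 and 1772.2 in Col-0. Before adjustment, more probe sets passed after heat shock than without it. An unadjusted p under 0.05 was reached by 2279 probe sets at 37 °C (13.4%; 1144 higher, or 6.71%, and 1135 lower, or 6.65%), against 656 at 22 °C (3.85%, with 1 call). Replicates were also farther apart in the heat: the median SD of log2 values was 0.12 in til1-1 and 0.12 in Col-0 at 37 °C, against 0.09 in til1-1 and 0.07 in Col-0 at 22 °C. The part of that spread in the count was not tested.

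The precision sets what such a comparison can see. The median 95% confidence interval of a probe set reached 0.32 on the log2 scale to either side, and the median difference over all tested probe sets was 0.01. By the fit, 58 probe sets were at least 2-fold higher and 104 at least 2-fold lower in til1-1, and all but the 2 called ones missed the threshold. Both til1-1 arrays were above both Col-0 arrays for 3566 probe sets (20.9%) and below both for 3161 (18.5%), which is the background for the gene groups below.

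**Figure D2:**
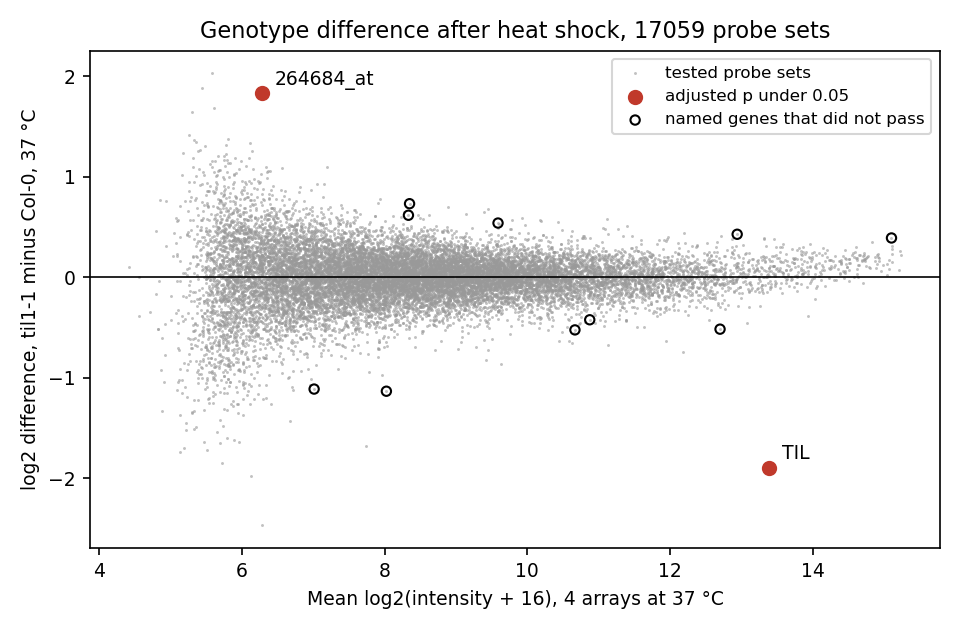
Difference between til1-1 and Col-0 at 37 °C (log2, positive where higher in til1-1) against the mean log2(intensity + 16) of the 4 arrays, 1 point for each of 17059 tested probe sets. TIL and 264684_at are filled in red, the 10 named genes that did not pass are open circles, and the cloud leans upward at its bright end, where the median difference was 0.15 as deposited and 0.01 after quantile normalization.

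Among genes that did not pass, the 5 with the smallest p in each direction were named. PIA1, a protein phosphatase of the 2C family, read 1396.3 and 1288.5 in til1-1, against 1930.7 and 1939.4 in Col-0 (log2 -0.52 ± 0.08, adjusted p = 0.0956). The 2 wild-type values lay close together, and at 22 °C the difference was 0.04. The class III peroxidase gene AT5G64120 read 131.0 and 194.2 in til1-1, against 293.2 and 465.3 in Col-0 (log2 -1.13 ± 0.19, adjusted p = 0.103). ICL, isocitrate lyase of the glyoxylate cycle with which young seedlings use stored oil, read 75.1 and 68.5 in til1-1, against 181.2 and 166.5 in Col-0 (log2 -1.11 ± 0.19, adjusted p = 0.103). ICL was already lower in the samples labelled til1-1 at 22 °C, where it read 85.7 and 80.1, against 137.3 and 123.0 in Col-0 (log2 -0.56, adjusted p = 1). JAL33, a jacalin-related lectin, read 5309.5 and 5819.0 in til1-1, against 7733.1 and 8184.1 in Col-0 (log2 -0.52, with -0.25 at 22 °C). AT1G29250 read 1621.1 and 1592.9 in til1-1, against 2115.9 and 2203.5 in Col-0 (log2 -0.42). JAL33 and AT1G29250 had an adjusted p of 0.103. All 5 genes were below on both mutant arrays.

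In the other direction AT5G01750 read 8998.7 and 9240.7 in til1-1, against 6677.5 and 6864.4 in Col-0 (log2 0.43 ± 0.06, adjusted p = 0.0956). The plastid gene psbM, a small subunit of photosystem II, read 38619.5 and 42240.4 in til1-1, against 30253.4 and 31312.1 in Col-0 (log2 0.39 ± 0.07, adjusted p = 0.103). The largest difference of the 5 was that of AT5G14410, which read 379.8 and 430.8 in til1-1, against 246.2 and 228.1 in Col-0 (log2 0.73). The other two were AT4G33666, at 885.3 and 942.2 in til1-1, against 672.0 and 577.4 in Col-0 (log2 0.54), and AT1G52320, at 380.4 and 387.1 in til1-1, against 228.4 and 261.5 in Col-0 (log2 0.62). AT5G14410, AT4G33666 and AT1G52320 had an adjusted p of 0.103. At 22 °C these 5 differences were between 0.06 and 0.25. In all, 118 probe sets had an adjusted p under 0.11, of which 79 were lower, 39 higher and 44 paired with 1 gene, so none of the named genes stands alone at that level.

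**Figure D3:**
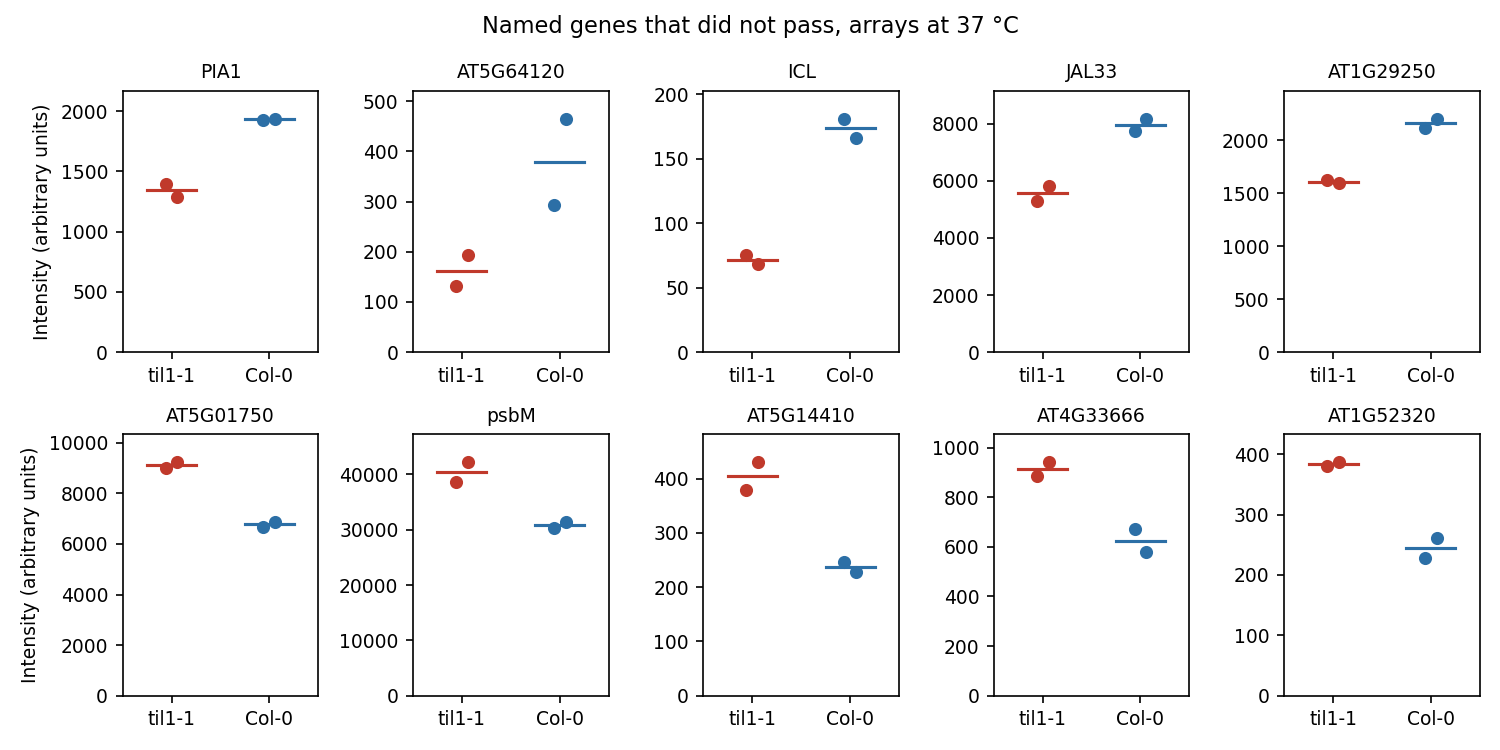
Intensity (arbitrary units, linear axes from 0) of the 10 named genes that did not pass, on the 2 til1-1 arrays (red) and the 2 Col-0 arrays (blue) at 37 °C, with a line at each group's mean. In the upper row both til1-1 arrays lie below both Col-0 arrays, in the lower row above them.

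The other measured lipocalin gene, CHL, which encodes the chloroplastic lipocalin, read 3884.1 and 4233.9 in til1-1, against 3744.5 and 3581.8 in Col-0 (log2 0.15, adjusted p = 0.408). HSA32, a heat-induced protein of acquired thermotolerance, overlapped between the genotypes, with 5685.5 and 5310.1 in til1-1 and 5377.9 and 5208.9 in Col-0 (log2 0.05, adjusted p = 0.899). Gene groups are described from here on by counts and medians, and the genes given as examples were chosen after their values were seen. The background for counts at an unadjusted p under 0.05 (limma) is 6.71% of all tested probe sets higher and 6.65% lower. Of 548 genes in 33 lists with a tested probe set, TIL was the 1 called.

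Of the small heat shock proteins none of 10 tested members passed limma; 1 was higher and 1 lower at an unadjusted p under 0.05. The member AT1G53540 read 33137.0 and 33062.6 in til1-1, against 29626.5 and 27757.5 in Col-0 (log2 0.21, adjusted p = 0.582). ATHSP22.0, of the endoplasmic reticulum, read 28383.5 and 29060.8 in til1-1, against 24156.5 and 26376.1 in Col-0 (log2 0.19, adjusted p = 0.862). The member farthest down was AT4G21870, with 1344.7 and 1733.5 in til1-1, against 1820.8 and 2386.0 in Col-0 (log2 -0.45, adjusted p = 0.202). In 6 members (60%) both til1-1 arrays were above, in 1 (10%) both were below and in 3 the groups overlapped. All 6 were among the 8 members with a mean log2 level of at least 13 (75% of them). The list's median level was 14.34, and 78.4% of all probe sets at a level of at least 14 had both til1-1 arrays above. The count is thus near the share of all probe sets at such levels. The list median was 0.16 at 37 °C as deposited and 0.01 after quantile normalization.

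Among 9 large chaperones and co-chaperones none passed limma, with 1 at an unadjusted p under 0.05. That gene, the cytosolic HSP70 member AT3G09440, read 29530.6 and 29073.0 in til1-1, against 26711.6 and 24628.7 in Col-0 (log2 0.19, adjusted p = 0.272). Hop3, an organiser of HSP70 with HSP90, read 22981.4 and 21792.4 in til1-1, against 21780.0 and 18312.3 in Col-0 (log2 0.16, adjusted p = 0.5), while its relatives Hop1 and Hop2 differed by 0.11 and -0.01. The list median was 0.07, and turned to -0.01 after quantile normalization. Of 9 genes that answer unfolded proteins in the endoplasmic reticulum none passed, with 1 at an unadjusted p under 0.05, and the transcription factor genes BZIP60 (log2 0.11) and BZIP28 (log2 0.00) overlapped between the genotypes.

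These high-level groups share a feature with all bright probe sets. Of the 125 probe sets with a mean log2 level of at least 14 at 37 °C, both til1-1 arrays were above in 98 (78.4%), with a median difference of 0.15, whereas in the 6050 with a level of 8 to 10 the share was 20.8% and the median 0.01. After quantile normalization the median of the 125 was 0.01. A level of at least 13 was held by 8 of the 10 small heat shock proteins, 5 of the 9 large chaperones, 10 of the 12 nuclear photosynthesis genes and 33 of the 69 plastid-encoded genes. The part of the level in these differences was not tested further, and the grouping by level was chosen after the data were seen.

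Plastid-encoded genes mostly serve photosynthesis or the plastid's own ribosomes and polymerase. None of the 69 tested passed limma; 35 (50.7%) had both til1-1 arrays above, against 20.9% of all probe sets, and 2 (2.9%) had both below. Of those 35, 25 were among the 33 members with a level of at least 13 (75.8% of them). Of all 353 probe sets at that level, members included, 53.3% had both til1-1 arrays above. Within that level the share was 39.5% at 13 to 14 and 78.4% at 14 or more. Members were not matched to these finer levels, so 75.8% beside 53.3% does not set the list apart from its level. At an unadjusted p under 0.05 there were 21 higher (30.4%) and 1 lower (1.45%). Beside psbM, another photosystem II gene, psbI, read 10987.2 and 12554.1 in til1-1, against 8332.7 and 9576.2 in Col-0 (log2 0.39, adjusted p = 0.147). The ATP synthase gene atpA read 24626.6 and 24580.7 in til1-1, against 20518.8 and 20293.3 in Col-0 (log2 0.27, adjusted p = 0.183). rpoA, a subunit of the plastid RNA polymerase, read 8163.7 and 8953.9 in til1-1, against 6789.8 and 6366.9 in Col-0 (log2 0.38, adjusted p = 0.178). The 1 lower gene was rpl36, of the plastid ribosome, with 4369.9 and 4158.5 in til1-1, against 5501.7 and 5599.2 in Col-0 (log2 -0.38, adjusted p = 0.103). The list median was 0.14 as deposited, 0.08 with quantile normalization, 0.36 when scaled to spiked controls, and -0.02 at 22 °C as deposited. Among the 36 members with a level under 13 it was 0.08, with 10 above (27.8%) and 2 below. All probe sets at a level of 10 to 13 had a median of 0.0005, with 23% above and 23% below. Leaving out 1 array at 37 °C gave medians over the 69 genes from 0.11 without Col-0 replicate 1 to 0.17 without Col-0 replicate 2. Counts above and below are not given for these, since with 1 array in a group more of all probe sets separate. Genes encoded in mitochondria had a median of 0.02, with 0 of 15 at an unadjusted p under 0.05 by limma.

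Among nuclear photosynthesis genes none of 12 passed limma; 6 were higher (50%) and 0 lower at an unadjusted p under 0.05, and 8 (66.7%) had both til1-1 arrays above. All 8 were among the 10 members with a level of at least 13, where 53.3% of all probe sets had both til1-1 arrays above and 27.8% were higher at an unadjusted p under 0.05. The share above was 39.5% at a level of 13 to 14 and 78.4% at 14 or more, and the list's median level was 13.84. After quantile normalization 5 members had both til1-1 arrays above, a count given without the share of all probe sets under that normalization. PSB27, which acts in the assembly of photosystem II, read 15216.5 and 16459.6 in til1-1, against 12402.3 and 13482.9 in Col-0 (log2 0.29, adjusted p = 0.139). The antenna gene LHCB4.1 read 28356.8 and 29365.3 in til1-1, against 24765.1 and 25193.2 in Col-0 (log2 0.21, adjusted p = 0.2). SBPASE, an enzyme of the Calvin cycle at a lower level, overlapped, with 6680.4 and 7143.9 in til1-1 and 6452.9 and 7403.5 in Col-0 (log2 0.00). The list median was 0.16 as deposited, 0.07 after quantile normalization and -0.04 at 22 °C.

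Among genes of cytosolic ribosomal proteins none of 124 tested passed limma; 53 (42.7%) had both til1-1 arrays below, against 18.5% of all probe sets and 22.9% of those at a level of 10 to 12, where the list's median level of 11.58 lies. At an unadjusted p under 0.05 there were 26 lower (21%) and 1 higher (0.806%), and 93 of the 124 differences were negative. AT4G26230 read 2176.6 and 2107.5 in til1-1, against 2921.1 and 2799.6 in Col-0 (log2 -0.41, adjusted p = 0.103). AT2G41840, at a higher level, read 6459.7 and 6660.4 in til1-1, against 7841.8 and 8033.0 in Col-0 (log2 -0.27, adjusted p = 0.153). The 1 higher member was AT5G23900, with 3715.8 and 3656.3 in til1-1, against 3258.0 and 3067.5 in Col-0 (log2 0.22, adjusted p = 0.365). The list median was small, at -0.10 with -0.03 at 22 °C. It was -0.10 with quantile normalization and 0.12 when scaled to spiked controls, a scaling that moves the median of all probe sets to 0.22. Each array is multiplied by 1 factor there, which moves the list and all probe sets nearly alike. The place of the list below all probe sets on that scale was thus fixed beforehand and adds no support. On the spiked scale 59 members were above and 9 below. That scaling moves all probe sets up in til1-1, so the shares of all probe sets as deposited are no background for these counts. The shares on the spiked scale are not given here, so these counts do not place the list relative to all probe sets. Leaving out 1 array at 37 °C gave medians of -0.13 without til1-1 replicate 1 to -0.06 without til1-1 replicate 2. With fewer arrays to separate, the counts above and below then grow for all probe sets alike, so none are given.

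**Figure D4:**
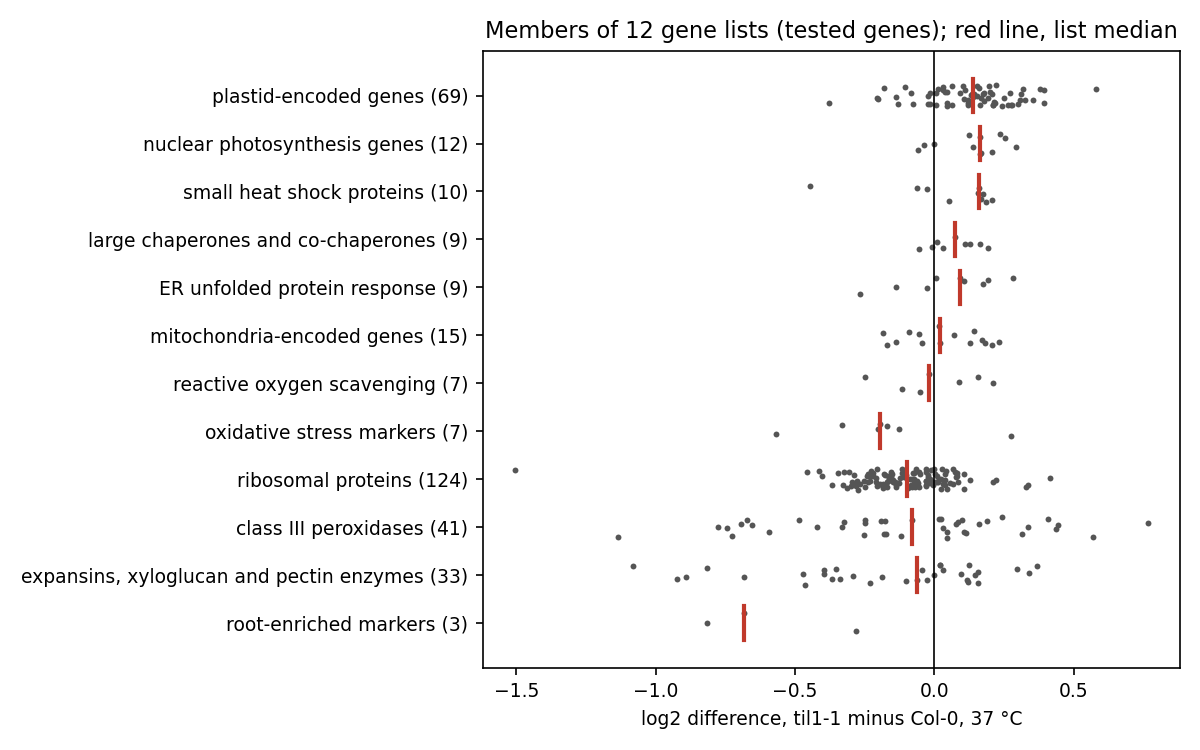
Difference between til1-1 and Col-0 at 37 °C (log2, as deposited, positive where higher in til1-1) of each tested member of 12 gene lists, with the number tested in brackets and a red line at the list median. Medians run from 0.16 for nuclear photosynthesis genes and small heat shock proteins to -0.68 for root-enriched markers; scaling to spiked controls, which moves the median of all probe sets to 0.22, gives 0.12 for ribosomal proteins, 0.13 for peroxidases and 0.02 for oxidative stress markers, and quantile normalization gives -0.01 for large chaperones.

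Class III peroxidases, secreted enzymes that use hydrogen peroxide in the cell wall, spread widely. None of 41 tested passed limma; at an unadjusted p under 0.05 there were 9 lower (22%) and 3 higher (7.32%). Of all probe sets 6.65% were lower and 6.71% higher at that p. Both til1-1 arrays were below in 14 (34.1%) and above in 8 (19.5%), against 18.5% and 20.9% of all probe sets. After AT5G64120, the smallest p was that of AT5G64100, which read 1258.3 and 1242.3 in til1-1, against 1713.2 and 2280.1 in Col-0 (log2 -0.65, adjusted p = 0.103). AT5G17820 read 640.6 and 434.7 in til1-1, against 849.8 and 918.1 in Col-0 (log2 -0.73, adjusted p = 0.103). AT4G26010, the brightest of the lower members, read 2122.6 and 1465.5 in til1-1, against 2832.0 and 2809.4 in Col-0 (log2 -0.67, adjusted p = 0.148). Close relatives such as AT5G64120 and AT5G64100 may share probes, so that their values are not fully separate. Among the higher members AT5G66390 read 496.1 and 652.2 in til1-1, against 428.8 and 480.5 in Col-0 (log2 0.32, adjusted p = 0.34). The median over the list was -0.08 (0.00 at 22 °C), and 0.13 after scaling to spiked controls, against 0.22 over all probe sets on that scale. It was -0.03 without til1-1 replicate 1 at 37 °C and -0.04 without til1-1 replicate 2 or without Col-0 replicate 2, against 0.01 over all probe sets as deposited.

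Markers of root tissue are given next. Of 4 such genes paired with a probe set 3 were tested, and all 3 were below on both til1-1 arrays, though none passed limma and all 3 had an unadjusted p under 0.05. Of all tested probe sets 18.5% were below on both til1-1 arrays and 6.65% were lower at that p. EXPA7, an expansin of root hairs, read 51 and 85.0 in til1-1, against 108.2 and 153.2 in Col-0 (log2 -0.82, adjusted p = 0.175). EXPA18, also of root hairs, read 86.7 and 94.8 in til1-1, against 147.5 and 163.7 in Col-0 (log2 -0.68, adjusted p = 0.103). PYK10, a beta-glucosidase of roots and hypocotyls, read 8842.7 and 8972.9 in til1-1, against 10387.0 and 11283.9 in Col-0 (log2 -0.28, adjusted p = 0.15). Their summed intensity, nearly all of it from PYK10, was 8980.4 and 9152.7 in til1-1, against 10642.7 and 11600.8 in Col-0. The list median was -0.68 at 37 °C and -0.26 at 22 °C, with all 3 negative there too. The part of root tissue in the values of peroxidases and of other genes was not tested. The wider list of 33 expansins, xyloglucan and pectin enzymes also holds EXPA7 and EXPA18, and none of it passed limma. It had 6 lower (18.2%) and 1 higher (3.03%) at an unadjusted p under 0.05, against 6.65% and 6.71% of all probe sets. Its median was -0.06, which leaving out replicate 1 of til1-1 at 37 °C moved to -0.20, leaving out replicate 2 of Col-0 to -0.02 and scaling to spiked controls to 0.13, against 0.22 over all probe sets.

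**Figure D5:**
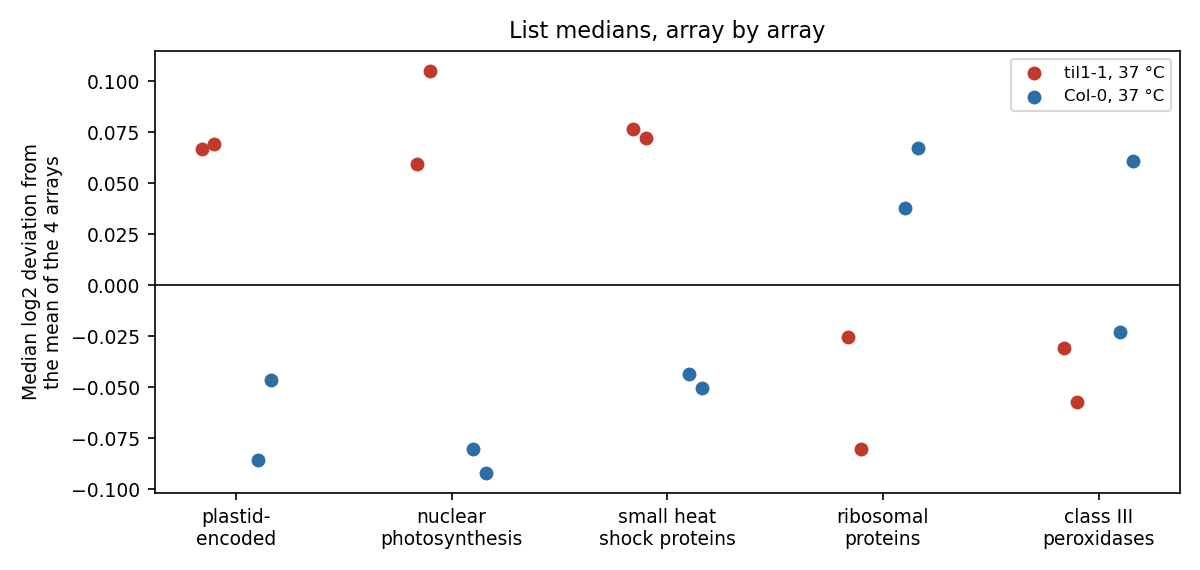
Median over list members of the deviation (log2) of each array at 37 °C from the mean of the 4 arrays, for 5 gene lists, with til1-1 in red and Col-0 in blue, 1 point an array, as deposited. Plastid-encoded genes lie at 0.07 and 0.07 in til1-1, against -0.09 and -0.05 in Col-0, and ribosomal proteins at -0.03 and -0.08 in til1-1, against 0.04 and 0.07 in Col-0; the values are relative to the common scaling of the arrays, and after scaling to spiked controls the median differences are 0.12 for ribosomal proteins and 0.13 for peroxidases, against 0.22 for all probe sets.

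Genes tied to oxidation, against which lipocalins of this kind are known to act, gave no call. Among 7 markers of oxidative stress 1 was higher (14.3%) and 0 lower at an unadjusted p under 0.05 by limma, against 6.71% and 6.65% of all probe sets. It was AT1G05060, with 547.3 and 567.1 in til1-1, against 480.4 and 436.1 in Col-0 (log2 0.27, adjusted p = 0.297). NDB2, an alternative NADH dehydrogenase of mitochondria, read 545.1 and 508.0 in til1-1, against 624.7 and 564.3 in Col-0 (log2 -0.17, adjusted p = 0.581), and the zinc finger repressor STZ overlapped between the groups. The median was -0.20 as deposited, -0.10 without Col-0 replicate 1 at 37 °C and 0.02 after scaling to spiked controls, against 0.22 over all probe sets on that scale. Of 7 scavenging genes 2 were higher and 1 lower at an unadjusted p under 0.05. The 2 chloroplast ascorbate peroxidases differed in sign. TAPX, of the thylakoid, read 1975.7 and 2253.7 in til1-1, against 1898.8 and 1744.7 in Col-0 (log2 0.21, adjusted p = 0.352). SAPX, of the stroma, read 749.1 and 784.2 in til1-1, against 893.7 and 935.4 in Col-0 (log2 -0.25, adjusted p = 0.291). In the list for lipid peroxidation, whose tested members are mostly aldehyde dehydrogenases, 2 of 9 were higher at an unadjusted p under 0.05. These were ALDH11A3 (log2 0.35, adjusted p = 0.125) and ALDH7B4, with 6221.5 and 6482.3 in til1-1, against 5548.5 and 5235.2 in Col-0 (log2 0.24, adjusted p = 0.234). Among 11 glutathione transferases 1 was higher at an unadjusted p under 0.05, GSTL3 (log2 0.29, adjusted p = 0.233), and the median was -0.13, or -0.04 without til1-1 replicate 1 at 37 °C.

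Single genes of other groups had the following values. CML41, a calmodulin-like protein, read 4.8 and 14.2 in til1-1, against 60.1 and 64 in Col-0 (adjusted p = 0.103); the til1-1 values lie under the added constant of 16 and, with no detection call, are not shown to be above background, so no size is given. It was among 24 calcium and calmodulin genes with a median of -0.10, of which 2 were lower and 1 higher at an unadjusted p under 0.05; without til1-1 replicate 2 at 37 °C that median was 0.03, and after scaling to spiked controls it was 0.10, against 0.22 over all probe sets. SPCH, the factor that starts the stomatal lineage, read 37.3 and 21.5 in til1-1, against 106.8 and 55.1 in Col-0 (log2 -1.06, adjusted p = 0.222). FMA, which acts at the end of that lineage, read 244.7 and 211.7 in til1-1, against 168.4 and 154.2 in Col-0 (log2 0.46, adjusted p = 0.233). Both belong to the list of guard cell and epidermis markers. Of its 3 tested members 2 were lower and 1 higher at an unadjusted p under 0.05 by limma, and none passed. The list median was -0.35, or -0.15 without til1-1 replicate 1 at 37 °C. SWEET16, a sugar carrier and the 1 gene at an unadjusted p under 0.05 among 12 listed for senescence and sugar starvation, read 690.3 and 979.8 in til1-1, against 524.8 and 511.3 in Col-0 (log2 0.65, adjusted p = 0.125). The added constant makes the log2 difference of a dim gene such as SPCH smaller than the ratio of their intensities. Among markers of seed and embryo, ICL was below and the oleosin gene OLEO3 overlapped between the groups, with 56.8 and 73.3 in til1-1 and 44.1 and 67.2 in Col-0 (log2 0.19).

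In the remaining lists no member passed limma. The counts that follow are at an unadjusted p under 0.05, where 6.71% of all probe sets were higher and 6.65% lower. Of 32 autophagy and ubiquitin genes 3 were higher (9.38%) and 1 lower (3.12%), with a median of 0.02. Of 8 cell cycle genes 1 was higher (12.5%) and 3 lower (37.5%), with a median of -0.22, or -0.11 without til1-1 replicate 2 at 37 °C. HTB2 and HTB11, both for histone H2B, differed in sign within that list (log2 0.46 and -0.26). Of 27 genes listed for glucosinolates and camalexin, among them many cytochromes P450 and beta-glucosidases, 3 were lower (11.1%, median -0.03). Of 30 phenylpropanoid and flavonoid genes, most of them glycosyltransferases, 3 were lower (10%, median -0.09). Of 14 for abscisic acid, dehydration and cold 1 was lower (7.14%, median -0.07). Auxin response genes had 1 higher of 9 (11.1%), WRKY and NAC factors 1 higher of 7 (14.3%), and reference genes 1 lower of 8 (12.5%), the tubulin gene TUB1. In lists this small a single member already exceeds the share of all probe sets. Flower and pollen markers had 0 of 8, jasmonate response genes 0 of 3 and salicylate genes 0 of 2 in either direction at that level, and the 1 measured ERF gene was not among them. Of the 2 clock and light genes HYH was lower (log2 -0.53, adjusted p = 0.285) and GI was not (log2 0.16, adjusted p = 0.519).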

How the data were processed

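The authors deposited 1 linear intensity for each probe set and array, made with Affymetrix's GCOS software per the submitters' processing notes; version and settings: not given in the sources used here. Every array had a trimmed mean (2% off each end) of 500.04 or 500.05. No detection call was used.

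Of 22810 probe sets, 64 were controls, 13513 paired with 1 gene by GEO's platform annotation, 503 with several and 8730 with none listed; 13436 matched RefSeq's gene table. The deposited intensities were turned into log2(intensity + 16), controls and the dimmest 25% were left out, and 17059 remained. limma 3.58.1 (R 4.3.3) fitted 1 mean per group over all 8 arrays, with a trend of the spread over intensity, and p-values were adjusted over all 17059 by Benjamini-Hochberg at a threshold of 0.05. The fit was also run on simulated arrays built with the spread it had estimated, the same at both temperatures. That run checks only that changes put in come back out, and says nothing of how the fit does on the real arrays. SDs rest on 2 arrays a group. Standard errors are those of limma and rest on a spread shared by all 8 arrays and drawn toward the trend over intensity.

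Named were TIL, called probe sets and, where under 5 genes passed in a direction, the 5 of smallest p. Members and lists were chosen with earlier results of these data known, and families were completed by gene ID, from general knowledge, after the smallest p-values were seen, so family names of genes with no symbol rest on that. Where a gene had several probe sets, the brightest was used. Alternatives varied the scaling, the constant, the filter, the fit and the arrays.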

Additional observations from a re-analysis of the deposited data

Results flagged for a closer look

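The effect of genotype on TIL differed between the temperatures. The difference between til1-1 and Col-0 was -1.90 at 37 °C and -0.15 at 22 °C on the log2 scale, and the test of the difference between these values gave -1.7463 ± 0.1274 (standard error) at an adjusted p of 0.000204 (limma), or 0.106 for the same difference in a fit with no intensity trend. Groups of 2 arrays are too small to single out an array that lies far from the others.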

How the results depend on the processing

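The log2 difference of TIL lay between -1.96 and -1.67 over 19 alternatives and passed in each, with adjusted p from 9.76e-24 to 0.0142. That of 264684_at lay between 1.13 and 2.34 over 18 alternatives, with adjusted p up to 0.175. The counts moved more. Higher calls, 1 as reported, came to 296 after scaling to spiked controls, 0 with no filter, 0 with the dimmest 50% left out, 0 with only the arrays at 37 °C and 3 with no trend. Lower calls, 1 as reported, came to 37 after scaling to spiked controls and 7 with no trend. Calls for the difference between temperatures came to 13 after scaling to spiked controls. Leaving out 1 array gave 0 to 5 higher calls, 1 to 22 lower calls and 1 to 2 for the difference between temperatures. The 22 lower calls came without til1-1 replicate 1 at 37 °C, 10 without til1-1 replicate 2, 7 with 5 higher calls without Col-0 replicate 1, and 4 higher calls without til1-1 replicate 1; a lone array is assumed there to vary like the other groups. With replicate number as a block there were 24 higher calls, 55 lower calls and 3 for the difference between temperatures; the numbers are only shared, with deviations correlating at 0.111 at 37 °C, and do not establish pairing. The TIL difference between temperatures lay between -1.88 and -1.56 over 18 alternatives; with no trend it kept its size and did not pass (adjusted p = 0.106). Of 226 values of the 12 named probe sets under alternatives, 199 stayed on their side of the threshold, 19 passed newly, 8 no longer passed and 0 changed sign. The cause of these moves was not tested.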
